A study of Danio rerio with 30 samples.

Results

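Histones are the proteins around which DNA is wound. Of the 35117 genes listed in each of the 30 zebrafish RNA libraries, 45 were taken as histone genes by name: 32 whose name starts with hist (called hist-prefixed below), and 13 whose name starts with h1f, h2af or h3f3 or is h1m (called variant genes). The 32 hist-prefixed genes were 28 genes that share the name hist1h4l (histone H4), hist1h2ba (H2B), hist2h3c (H3), histh1l (a linker histone) and hist2h2l, whose name gives no class. The 13 variant genes were 5 H3.3 genes (h3f3a, h3f3d and 3 genes named h3f3b.1), 5 H2A variants (h2afx, h2afva, h2afvb, h2afy and h2afy2) and 3 linker histones (h1m, h1f0 and h1fx). Histone genes that the files list under other kinds of name were not members.

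The libraries came from whole wild-type embryos or from embryos injected with alpha-amanitin, a toxin that blocks RNA polymerases II and III, at 200 ng/µl at the single-cell stage. Injected embryos were sampled every 0.5 h from 2 to 7.5 h post-fertilization (hpf), in 12 poly(A)-captured libraries. Wild-type embryos were sampled every hour from 0 to 8 hpf, once as 9 poly(A)-captured libraries and once as 9 Ribo-Zero libraries, in which ribosomal RNA is removed and RNA without a poly(A) tail is kept. Each set held 25 embryos, no strain was named in the labels, and the files held 1 column for each time point, treatment and library kind, so hours stand in for replicates and every error below is a scatter across hours. Levels are TPM, the usual length-scaled transcript shares of an RNA library, which add up to the same total in every library, so that a level is relative to the RNA captured. Fewer cells or less RNA per cell cannot be told apart in such whole-embryo shares.

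In a dividing cell, the replication-dependent histone genes supply most of the core histones H2A, H2B, H3 and H4 and the somatic linker histones. Their mRNAs are, as a rule, the only animal mRNAs without a poly(A) tail: the 3′ end is a stem-loop that is cut after the stem-loop-binding protein Slbp and the U7 snRNP have bound. Replacement variants such as H3.3, H2A.Z and macroH2A are made from polyadenylated mRNAs outside S phase as well. Linker histones bind the DNA between nucleosomes, and eggs of fish and frogs carry a maternal form, H1M in zebrafish (the counterpart of frog B4), that embryos replace by somatic forms after the zygotic genome is switched on.

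The zygotic and follicle cell markers fitted the labels. The summed TPM of 6 zygotic markers (tbxta under its older name ta, tbx16, vox, aplnrb, sox32 and krt4) did not exceed 1.22 in any alpha-amanitin library, whereas it reached 3167 in wild-type poly(A) and 1573 in Ribo-Zero libraries at 8 hpf. The 4 markers of ovarian follicle cells found in the files summed to at most 1.26 TPM in every library. The 6 maternal markers (buc, mos, zar1, gdf9, zp2.2 and zp3b) summed to 1341 TPM at 0 hpf and 41.9 TPM at 8 hpf in Ribo-Zero libraries. In wild-type poly(A) libraries their sum was not highest in the egg, with 274 TPM at 0 hpf, up to 814 TPM later and 86.0 TPM at 8 hpf. Between 12703 and 14379 genes per alpha-amanitin library, 11919 and 16194 per wild-type poly(A) library and 14022 and 15024 per Ribo-Zero library had a TPM of at least 1. Mitochondrially encoded transcripts took 7.67% to 14.1%, 6.30% to 11.4% and 1.15% to 1.87% of these libraries, in the same order. Read numbers are not given in the sources used here, and the levels therefore carry no counting interval.

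The first comparison asks how much of each histone mRNA is seen after poly(A) capture. The hist-prefixed genes were nearly lost from the poly(A) libraries. Their summed level from 0 to 8 hpf was 419, 206, 160, 431, 497, 746, 889, 838 and 401 TPM in poly(A) libraries, against 12756, 14492, 12018, 12999, 18012, 33767, 34582, 32537 and 23761 TPM in Ribo-Zero libraries. The 2 sets of values do not overlap, and the Ribo-Zero sum was between 30.2 times (3 hpf) and 75.2 times (2 hpf) the poly(A) sum of the same hour. The variant genes went the other way, at 11283, 14798, 10205, 5750, 6687, 8412, 9810, 10077 and 10073 TPM in poly(A) libraries and between 2757 and 3727 TPM in Ribo-Zero libraries. Hist-prefixed transcripts thus made up 1.2% to 3.46% of all TPM in Ribo-Zero libraries, but only 0.0160% to 0.0889% in poly(A) libraries.

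**Figure D1:**
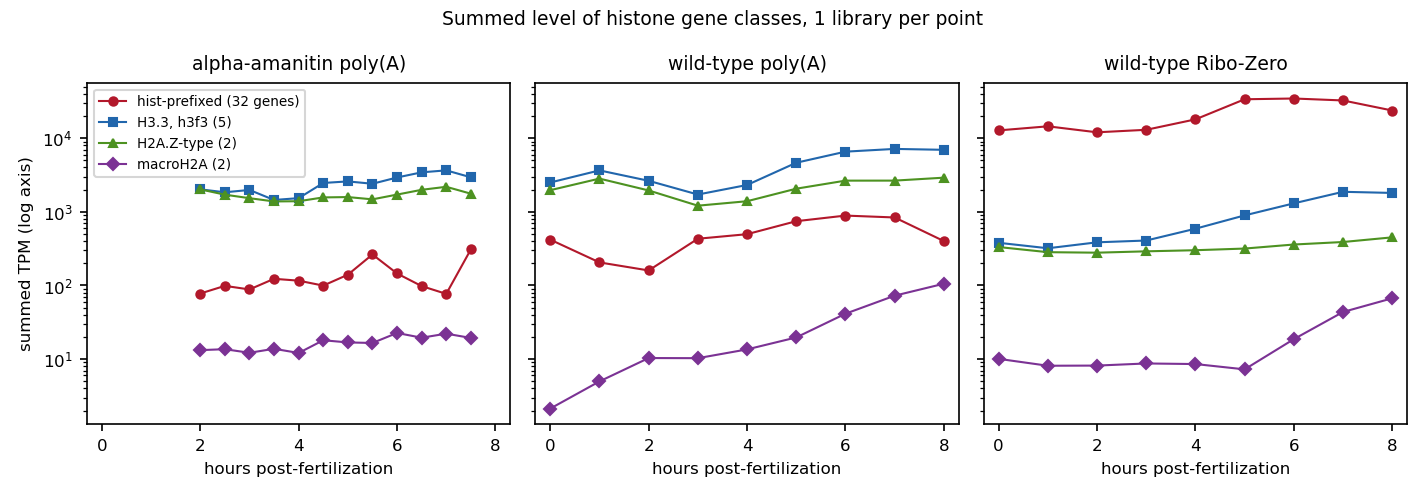
Summed TPM (log axis) of 4 groups of histone genes against hours post-fertilization in alpha-amanitin poly(A) (left), wild-type poly(A) (middle) and wild-type Ribo-Zero libraries (right), with 1 library per point. The 32 hist-prefixed genes lie above every other group in the Ribo-Zero libraries, at 12018 to 34582 TPM, and below H3.3 and H2A.Z-type genes in all poly(A) libraries.

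Gene by gene, each library pair of an hour gives a difference, poly(A) minus Ribo-Zero on the log2(TPM + 0.1) scale, whose mean over 9 hours was tested with limma across 15982 genes (two-sided, Benjamini-Hochberg adjusted p under 0.05). Of the 32 hist-prefixed genes, 30 were lower and 0 higher in poly(A) libraries, with a median difference of -5.61 beside -0.06 over all genes tested. Of all genes tested, 10.5% were lower and 15.0% were higher. Of 13 variant genes, 12 passed the filter on low levels, and 8 of them were higher and 1 lower, with a median of 1.67. Among the hist-prefixed genes, histh1l and hist2h2l did not pass the test. Of the 30 that were lower, 28 were hist1h4l copies, and the others were hist1h2ba and hist2h3c. Among the variants, h2afx was lower, and 3 (h2afy, h2afy2 and h1f0) did not pass. Rescaling the libraries by the median of ratios to a common reference shifted the median of all genes by -0.06 and lowered the share of higher genes among all calls to 42.6% (58.8% without it), and gave the same counts for both groups. Without the hour as a block, h1m (1.16, adjusted p = 0.0648) no longer passed the test, and 7 variants were higher.

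All 28 hist1h4l genes encode histone H4, the most conserved core histone, and reads of such near-identical copies are divided among them by estimation, so a single copy's level is uncertain. They were lower in poly(A) libraries without exception, by -6.74 to -4.82 on the log2 scale. The lowest 5 differences were those of ENSDARG00000088420 (-6.74 ± 0.24, SE, n = 9 hours), ENSDARG00000089823 (-6.58 ± 0.25), ENSDARG00000087236 (-6.53 ± 0.22), ENSDARG00000086555 (-6.40 ± 0.26) and ENSDARG00000089684 (-6.39 ± 0.43), with limma adjusted p between 3.21e-10 and 2.84e-07. Of these, ENSDARG00000088420, ENSDARG00000087236 and ENSDARG00000086555 were also the copies with the highest mean Ribo-Zero level, at 1943, 1403 and 1049 TPM. ENSDARG00000089684 was listed at 0 TPM in the poly(A) libraries of 1 and 2 hpf, so the size of its difference depends on the pseudocount of 0.1 TPM. From 0 to 8 hpf, ENSDARG00000088420 had 34.7, 13.7, 7.39, 24.1, 20.2, 19.1, 24.6, 25.4 and 7.44 TPM in poly(A) libraries, against 1534, 1694, 1536, 1537, 1884, 3020, 2637, 2094 and 1549 TPM in Ribo-Zero libraries. It alone took 8.53% to 14.8% of the hist1h4l sum in the Ribo-Zero libraries of 0 to 6 hpf, in which it was the highest copy, and ENSDARG00000087236 took that place at 7 and 8 hpf.

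The single H2B and H3 genes of the hist-prefixed group were also lower in poly(A) libraries. The H2B gene lay within and the H3 gene slightly above the range of the H4 copies, -6.74 to -4.82. hist1h2ba (ENSDARG00000034203) had 63.0, 21.4, 14.7, 42.7, 34.4, 36.7, 42.8, 41.2 and 12.6 TPM in poly(A) libraries from 0 to 8 hpf and 1157, 1108, 946, 1016, 1304, 2077, 1798, 1738 and 1090 TPM in Ribo-Zero libraries, a difference of -5.41 ± 0.22 (limma adjusted p = 1.33e-09). hist2h3c (ENSDARG00000094154), an H3 gene, had 31.9, 20.6, 14.2, 31.4, 44.5, 89.1, 112, 130 and 66.5 TPM against 817, 778, 711, 746, 975, 1780, 1843, 1981 and 1363 TPM, a difference of -4.58 ± 0.19 (limma adjusted p = 1.37e-09). For both genes the poly(A) levels all lay below the Ribo-Zero levels.

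h2afx (ENSDARG00000029406) encodes H2A.X, the variant phosphorylated at DNA breaks, and its mammalian gene gives both a stem-loop and a polyadenylated mRNA. Its level was 9.28, 7.41, 4.61, 12.7, 36.8, 77.6, 74.6, 64.0 and 34.1 TPM in poly(A) libraries from 0 to 8 hpf and 341, 488, 436, 462, 594, 894, 1173, 1324 and 992 TPM in Ribo-Zero libraries. The difference, -4.85 ± 0.30 (limma adjusted p = 9.43e-08), lay within the range of the H4 copies and apart from that of every other variant gene tested.

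Of the 11 other variants tested, 8 were higher in poly(A) than in Ribo-Zero libraries. The 5 highest differences were those of h2afvb (ENSDARG00000099214, 4.00 ± 0.23), an H2A.Z-type gene, h3f3d (ENSDARG00000045248, 3.53 ± 0.20), the h3f3b.1 genes ENSDARG00000068436 (2.50 ± 0.16) and ENSDARG00000068434 (1.99 ± 0.19), and h2afva (ENSDARG00000068820, 1.73 ± 0.14), the second H2A.Z-type gene, all with a limma adjusted p of 7.97e-06 or less. h2afvb had 1286, 1623, 964, 571, 706, 1200, 1740, 1982 and 2273 TPM in poly(A) libraries from 0 to 8 hpf, against 52.7, 34.5, 43.1, 52.6, 63.2, 89.8, 139, 140 and 240 TPM in Ribo-Zero libraries. The third h3f3b.1 gene (ENSDARG00000033009, 1.73 ± 0.38, adjusted p = 0.00552, but 0.17 and not called from 0 to 2 hpf alone), h3f3a (ENSDARG00000020504, 1.61 ± 0.13, adjusted p = 1.23e-06) and h1m (ENSDARG00000102892, 1.16 ± 0.20, adjusted p = 0.00114) were higher as well. The macroH2A genes h2afy (ENSDARG00000099329, 0.13 ± 0.34) and h2afy2 (ENSDARG00000087897, 0.36 ± 0.35) and the linker gene h1f0 (ENSDARG00000038559, 0.42 ± 0.29) did not pass the test, with adjusted p between 0.312 and 0.806. The macroH2A difference turned with time, at -1.01 for h2afy and -0.66 for h2afy2 from 0 to 2 hpf (not past the threshold) and 0.77 and 1.02 from 4 to 8 hpf, where both passed. The median of all genes turned as well, at -1.49, -0.93 and 0 at 0, 1 and 2 hpf and between 0.33 and 0.58 from 4 to 8 hpf. h1f0 had at most 0.10 TPM in both library kinds up to 3 hpf. From 4 to 8 hpf alone it passed as well, at 0.98 ± 0.21 (limma adjusted p = 0.00526). The linker gene h1fx (ENSDARG00000054058) was under the filter.

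**Figure D2:**
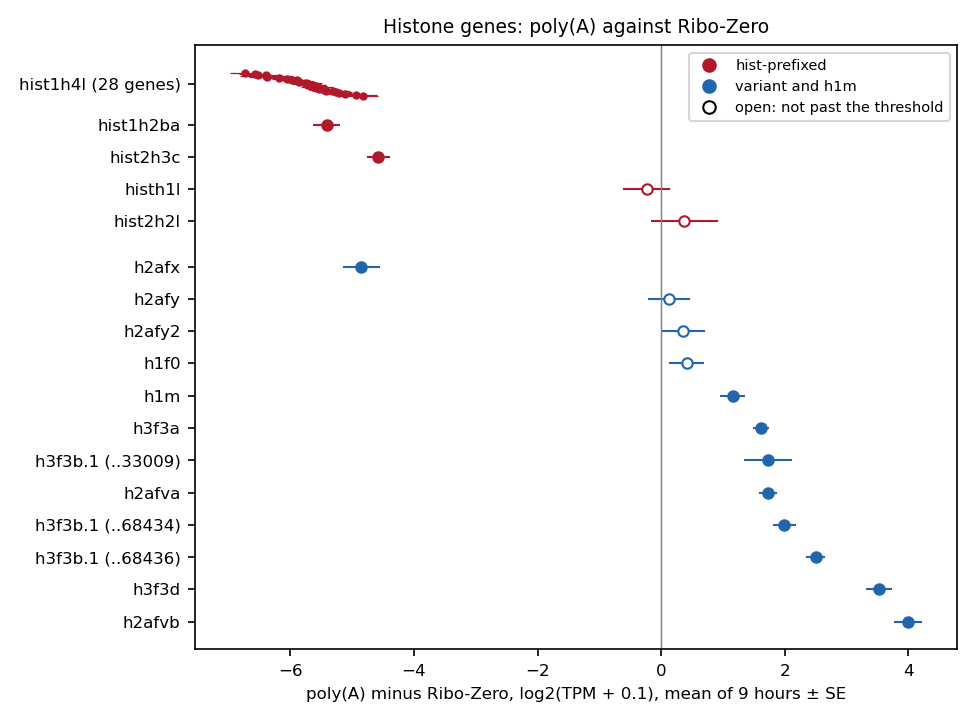
Mean poly(A) minus Ribo-Zero difference in log2(TPM + 0.1) over 9 hours for the 44 histone genes tested, with the SE as bars and open points for genes not past the threshold. The H4 copies, hist1h2ba, hist2h3c and h2afx lie between -6.74 and -4.58, and the other variant genes lie between 0.13 and 4.00.

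The difference between library kinds also had a course over time. The median difference of the 28 H4 copies was -5.21, -6.51, -6.27, -4.94, -5.19, -5.66, -5.52, -5.78 and -6.45 on the log2 scale from 0 to 8 hpf, and all 28 were below 0 at every hour. It was least negative at 3 hpf, where the summed hist-prefixed level in poly(A) libraries was 2.7 times that of 2 hpf, while the Ribo-Zero sum was 1.08 times that of 2 hpf. In poly(A) libraries, 17 of the 28 copies had their lowest level from 0 to 4 hpf at 2 hpf and 10 had it at 1 hpf. Over all 15982 genes, the median difference was -1.49, -0.93, 0, 0.10, 0.47, 0.58, 0.49, 0.40 and 0.33 at the same hours, so most genes had lower levels in the poly(A) than in the Ribo-Zero libraries of 0 and 1 hpf.

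A linear trend of the difference on the hour was tested for each gene with limma. Among the 32 hist-prefixed genes, 3 had a rising and 1 a falling difference, and among the 12 variant genes tested 4 had a rising and 3 a falling one, whereas 40.4% of all genes had a rising and 4.50% a falling difference. The median trend was -0.06 per hour for hist-prefixed genes and 0.02 per hour for variant genes, beside 0.18 per hour over all genes. With median-of-ratios scaling, the median of all genes moved to 0.005 per hour and 18.7% of genes rose and 19.9% fell, and 2 hist-prefixed genes then had a rising and 21 a falling difference, with 1 and 5 among the variants. The number of hist-prefixed genes with a falling difference was 0 without 0 or 8 hpf, 3 without 1 hpf and 2 without 2 hpf. Among variants, 1 rose without 0 hpf and 2 without 1 or 6 hpf, and 1 fell without 0, 1 or 8 hpf.

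The steepest rise was that of hist2h2l. This gene (ENSDARG00000068996) had 0.66, 3.05, 4.53, 9.11, 16.3, 26.4, 26.5, 32.3 and 32.6 TPM in poly(A) libraries from 0 to 8 hpf, against 9.15, 8.86, 6.19, 6.20, 5.92, 7.02, 7.42, 11.1 and 10.01 TPM in Ribo-Zero libraries. Its poly(A) level was below the Ribo-Zero level to 2 hpf and above it from 3 hpf, and the trend was 0.60 ± 0.11 per hour on the log2 scale (limma adjusted p = 0.00198). The h3f3b.1 gene ENSDARG00000033009 followed at 0.43 ± 0.08 per hour, with 7.70, 10.6, 19.8, 28.6, 44.7, 111, 189, 257 and 309 TPM in poly(A) libraries and 12.5, 8.75, 10.5, 9.0, 10.6, 13.9, 22.6, 39.8 and 51.0 TPM in Ribo-Zero libraries. The linker genes histh1l (0.35 ± 0.10) and h1f0 (0.24 ± 0.08) and the macroH2A genes h2afy2 (0.31 ± 0.09) and h2afy (0.28 ± 0.10) also had a rising difference, and so did the H4 copy ENSDARG00000099920 (0.30 ± 0.09). It fell for h1m (-0.22 ± 0.05), h2afvb (-0.20 ± 0.06), h3f3d (-0.17 ± 0.06) and the H4 copy ENSDARG00000101249 (-0.25 ± 0.08). With median-of-ratios scaling h1f0 (0.15), h2afy2 (0.12), h2afy (0.09) and ENSDARG00000099920 (0.10) no longer passed the test. Up to 3 hpf histh1l had at most 0.61 TPM and h1f0 at most 0.10 TPM in both library kinds. Their early differences therefore depend on the pseudocount of 0.1 TPM, and their trends cannot show a change in poly(A) capture. With a pseudocount of 1, histh1l was at 0.14 (adjusted p = 0.0523), and without a filter h1f0, h2afy and h3f3d did not pass. Without 0 hpf, histh1l, h1f0, h2afy, h2afy2, h2afvb, h3f3d and ENSDARG00000101249 did not pass either, nor did ENSDARG00000099920 without 1 hpf. Other single hours mattered too: h3f3d also lost the call without 1, 2, 5, 6, 7 or 8 hpf, and h1f0 and h2afy without 1 or 6 hpf. The same held for h2afvb without 1 or 8 hpf and for ENSDARG00000101249 without 8 hpf.

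**Figure D3:**
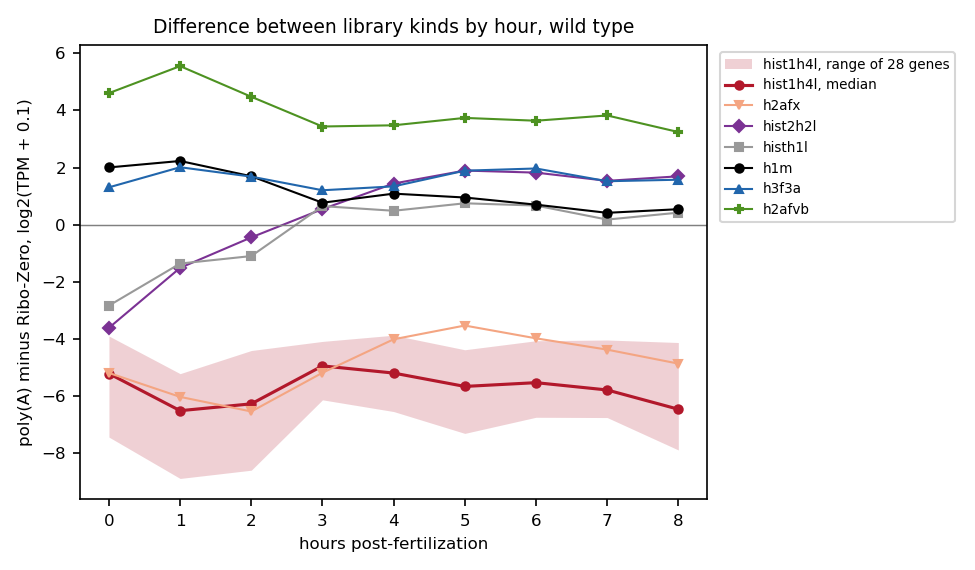
Poly(A) minus Ribo-Zero difference in log2(TPM + 0.1) at each hour, for the 28 H4 copies (median and range) and 6 named genes, with 1 library of each kind per hour. The H4 median stays between -6.51 and -4.94, h2afvb stays between 3.24 and 5.55, and hist2h2l and histh1l are below 0 to 2 hpf and above 0 from 3 hpf. Up to 3 hpf histh1l had at most 0.61 TPM in both kinds, so its early points depend on the pseudocount.

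The second comparison asks how the levels differed after and before activation of the zygotic genome, with 6, 7 and 8 hpf set against 0, 1 and 2 hpf. In Ribo-Zero libraries 27 of 32 hist-prefixed genes were higher late and 0 lower, with a median difference of 1.36 on the log2 scale, and 10 of the 12 variant genes tested were higher and 1 lower. Over all 15745 genes tested, 23.6% were higher and 58.5% lower, with a median of -1.05. With median-of-ratios scaling that median was 0.06, with 39.7% of genes higher and 34.5% lower, and all 32 hist-prefixed genes and 11 variants were higher. In poly(A) libraries 14 of 32 hist-prefixed genes and 9 of 13 variants were higher late, and 1 variant was lower, where 33.4% of all genes were higher and 26.3% lower. The poly(A) count of hist-prefixed genes fell to 9 without 6 hpf and to 8 without 7 hpf. That of variants was 6 to 8 when 1 hour at a time was left out. Of them, h2afvb (0.65, limma adjusted p = 0.0453) lost the call under both scalings, both other filters and a pseudocount of 0.01. The h3f3b.1 gene ENSDARG00000068436 (0.92, adjusted p = 0.0305) lost it without 0, 1, 7 or 8 hpf.

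The course in Ribo-Zero libraries had its maximum before 8 hpf. The summed hist-prefixed level changed little from 0 to 3 hpf, was 2.88 times the 2 hpf level at 6 hpf and came down to 0.687 of the 6 hpf level at 8 hpf. Among the 28 H4 copies the highest Ribo-Zero level was at 5 hpf for 11, at 6 hpf for 11 and at 7 hpf for 6, and it was 1.97 to 7.89 times the 2 hpf level (median 3.24). The 2 highest late minus early differences among the copies were those of ENSDARG00000089823 (2.52 ± 0.19) and ENSDARG00000089684 (2.45 ± 0.23), and the 4 lowest past the threshold were those of ENSDARG00000087543 (0.65 ± 0.22), ENSDARG00000099920 (0.77 ± 0.22), ENSDARG00000105482 (0.80) and ENSDARG00000105409 (0.85). Without 2 or 7 hpf, ENSDARG00000099920 lost the call (limma adjusted p = 0.0513 and 0.0512), and for the other copies such runs are not given here. ENSDARG00000088420 and ENSDARG00000086555, 2 of the 3 most abundant copies, did not pass the test, at 0.37 ± 0.21 and 0.35 ± 0.19. hist2h3c was higher late by 1.15 ± 0.17 (limma adjusted p = 0.00073), while hist1h2ba (0.50 ± 0.22, adjusted p = 0.072) and hist2h2l (0.23 ± 0.26) did not pass.

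Among the variants, H3.3 transcripts were higher late. H3.3 is the form of H3 that is placed in chromatin outside replication. The 5 H3.3 genes summed to 2502, 3653, 2639, 1718, 2315, 4641, 6563, 7151 and 6951 TPM in poly(A) libraries and to 380, 320, 386, 408, 590, 895, 1304, 1871 and 1805 TPM in Ribo-Zero libraries from 0 to 8 hpf, so that the 8 hpf sum was 2.78 times that of 0 hpf in poly(A) libraries and 4.75 times in Ribo-Zero libraries. h3f3a held most of the poly(A) sum from 5 hpf on and was higher late by 2.68 ± 0.22 in poly(A) and by 2.66 ± 0.18 in Ribo-Zero libraries (limma adjusted p = 1.82e-05 and 2.23e-05). h3f3d was the most abundant H3.3 gene in poly(A) libraries up to 4 hpf, and its late minus early difference was 0.04 ± 0.23 in poly(A) and 1.18 ± 0.17 in Ribo-Zero libraries.

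macroH2A, a large H2A variant linked to silent chromatin, was scarce in the egg. Its 2 genes summed to 2.13, 4.98, 10.3, 10.3, 13.6, 19.7, 41.4, 72.7 and 106 TPM in poly(A) libraries and to 10.1, 8.13, 8.17, 8.73, 8.57, 7.26, 18.7, 43.7 and 67.0 TPM in Ribo-Zero libraries. Both genes were higher late in both library kinds, h2afy by 3.78 ± 0.60 in poly(A) and 2.12 ± 0.36 in Ribo-Zero libraries, and h2afy2 by 3.68 ± 0.74 and 2.05 ± 0.58. The H2A.Z-type genes, whose product is found in nucleosomes beside promoters, differed from each other. h2afvb was higher late by 1.96 ± 0.26 in Ribo-Zero libraries, whereas h2afva kept to 211 to 280 TPM there and did not pass the test (-0.17 ± 0.12), although it did under median-of-ratios scaling (0.88 ± 0.13).

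The third comparison sets embryos with blocked transcription against wild-type embryos in poly(A) libraries of 4, 5, 6 and 7 hpf, 4 against 4, with the hour as a covariate. All 32 hist-prefixed genes were lower after alpha-amanitin, with a median difference of -2.85 on the log2 scale, where 21.8% of the 16028 genes tested were lower and 23.8% higher and the median of all was 0.40. Of 12 variant genes tested, 5 were lower and 0 higher. Median-of-ratios scaling brought the median of all genes to -0.12, with 27.1% lower and 12.5% higher, and gave 32 hist-prefixed genes and 8 variants lower. Leaving out 1 hour at a time left between 23 and 32 hist-prefixed genes and between 2 and 7 variants lower, with 2 variants without 5, 6 or 7 hpf. With the hour as a block, hist2h2l (adjusted p = 0.0598), h2afvb (adjusted p = 0.0527) and the h3f3b.1 gene ENSDARG00000033009 (adjusted p = 0.083) lost the call, and 29 hist-prefixed genes and 3 variants were lower.

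All levels of this comparison come from poly(A) libraries, in which most hist-prefixed genes were low. The hist-prefixed sum was 116, 140, 145 and 76.9 TPM after alpha-amanitin at 4, 5, 6 and 7 hpf, against 497, 746, 889 and 838 TPM in wild type. The gap was already there at earlier hours: at 2 and 3 hpf the sum was 77.7 and 88.3 TPM after alpha-amanitin and 160 and 431 TPM in wild type. The median difference over the 32 genes was then -1.34 and -2.48 on the log2 scale, with 26 and 29 of them below 0. Over all 16028 genes tested the median was 0.01 and 0.25, with 6905 and 3389 below 0. Each treatment and hour has 1 library, and the wild-type embryos developed under normal conditions, with no mock injection described. The toxin, the injection itself and the library set therefore cannot be told apart. For any gene of this comparison, a change in level cannot be told from a change in poly(A) capture either, since treated embryos have no Ribo-Zero libraries. At 7 hpf the median difference was -3.57.

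Named genes differed widely in this comparison. histh1l had the lowest difference, -8.24 ± 0.52 (limma adjusted p = 1.93e-05), and was listed at 0, 0, 0.06 and 0.11 TPM after alpha-amanitin at 4, 5, 6 and 7 hpf, against 9.63, 57.8, 67.6 and 74.2 TPM in wild type. h2afx had 3.32, 3.52, 4.64 and 1.20 TPM after alpha-amanitin, against 36.8, 77.6, 74.6 and 64.0 TPM in wild type, a difference of -4.36 ± 0.47 (adjusted p = 0.000269). h3f3a had 573, 877, 925 and 1226 TPM after alpha-amanitin, against 989, 2497, 4021 and 4366 TPM in wild type (-1.56 ± 0.24, adjusted p = 0.00178). For histh1l and h2afx the groups do not overlap, and for h3f3a the 7 hpf level after alpha-amanitin lay above the 4 hpf level in wild type, although it was lower at each hour. hist2h3c (-2.93 ± 0.40), hist1h2ba (-2.45 ± 0.52), hist2h2l (-1.39 ± 0.33), the h3f3b.1 gene ENSDARG00000033009 (-0.97 ± 0.29), h1f0 (-4.51 ± 0.85) and h2afvb (-0.63 ± 0.16) were lower as well. Of these, hist2h2l, h1f0, ENSDARG00000033009 and h2afvb lost the call without 5, 6 or 7 hpf, and hist1h2ba did without 6 hpf. After alpha-amanitin h1f0 was at 0.06, 0, 0 and 0.12 TPM at 4, 5, 6 and 7 hpf. Both histh1l and h1f0 passed the filter on low levels only through the wild-type libraries, which largely fixed the direction in advance. The size of their differences depends on the pseudocount of 0.1 TPM. h3f3d (-0.32 ± 0.18), h2afva (0.12 ± 0.17), the h3f3b.1 genes ENSDARG00000068434 (-0.57 ± 0.24) and ENSDARG00000068436 (-0.17 ± 0.21), and h2afy (-0.89 ± 0.42) and h2afy2 (-0.58 ± 0.31) did not pass the test.

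**Figure D4:**
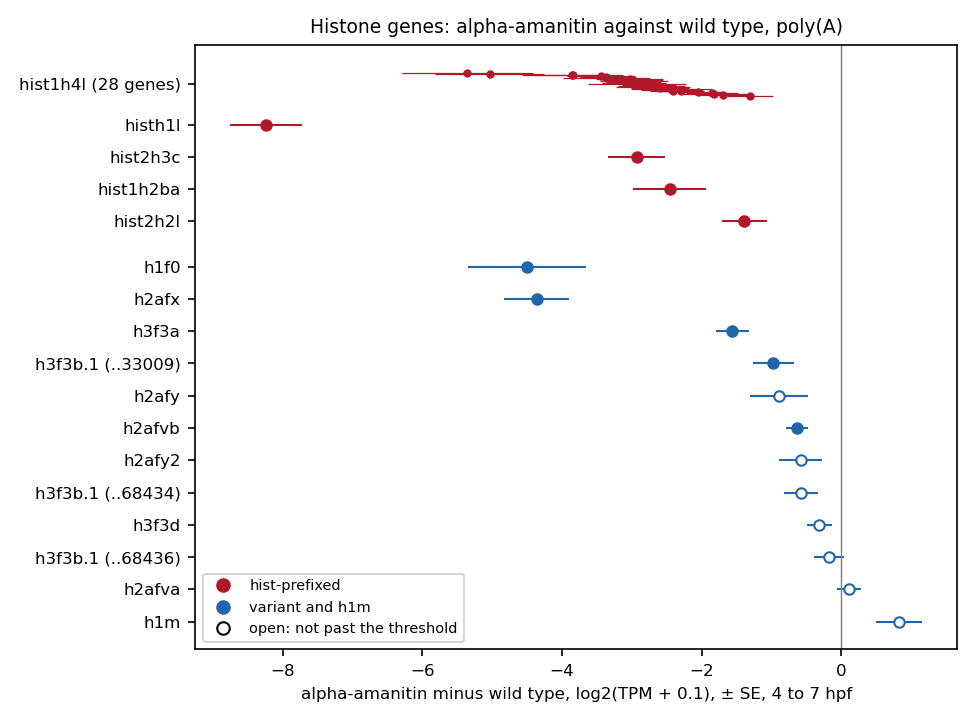
Alpha-amanitin minus wild-type difference in log2(TPM + 0.1) at 4 to 7 hpf in poly(A) libraries for the 44 histone genes tested, with the SE as bars and open points for genes not past the threshold. All hist-prefixed genes lie between -8.24 and -1.31, and h1m has the highest value, 0.83.

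Within the 12 alpha-amanitin libraries, levels relative to all other transcripts can be followed in time as a slope of ln(TPM + 0.1) per hour, the measure of decay used for such time courses. Of the 30 hist-prefixed genes tested, 4 had a positive and 0 a negative slope, and of the 11 variants tested 7 had a positive and 1 a negative slope, where 23.7% of the 13977 genes tested had a positive and 37.5% a negative slope. The 7 variants were the h3f3b.1 genes ENSDARG00000033009 (0.24 ± 0.02 per hour, limma adjusted p = 6.79e-07) and ENSDARG00000068436 (0.09 ± 0.02), h3f3d (0.17 ± 0.04), h2afy2 (0.11 ± 0.03), h2afy (0.09 ± 0.03), h3f3a (0.09 ± 0.03) and h2afvb (0.08 ± 0.03). From 2 to 4 hpf alone, all of these but ENSDARG00000033009 had slopes below 0, and that of h2afvb (-0.22, adjusted p = 0.0299) passed the test. h3f3a, h2afy and h2afy2 passed neither there nor from 4.5 to 7.5 hpf alone, where each was at 0.07. h2afy also lost the call on rescaling without mitochondrial genes and without 2.5, 3, 6, 7 or 7.5 hpf, and h2afvb lost it without 7 hpf. Since TPM is a share, a positive slope says that a transcript's share of the captured RNA grew while others shrank. A change in level and a change in poly(A) capture cannot be told apart here, since treated embryos have no Ribo-Zero libraries. Among hist-prefixed genes the count depended on single libraries, with 2 positive slopes without 7.5 hpf, 7 without 6.5 hpf and 10 without 7 hpf, and the hist-prefixed sum was 264 TPM at 5.5 hpf and 309 TPM at 7.5 hpf but 76.9 to 145 TPM in the other 10 libraries.

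The linker histones changed places. h1m, the maternal linker histone, had 6801, 8306, 5600, 2797, 2927, 1606, 471, 124 and 48.8 TPM in poly(A) libraries from 0 to 8 hpf and 1693, 1768, 1727, 1639, 1376, 830, 289, 92.8 and 33.4 TPM in Ribo-Zero libraries. It was the most abundant of the 4 linker histone genes from 0 to 7 hpf in both. The Ribo-Zero level moved little up to 3 hpf and fell at every later hour, while the poly(A) level at 3 hpf was already below those of 0 to 2 hpf. Late minus early, h1m was lower by -5.59 ± 0.69 in poly(A) (limma adjusted p = 0.000166) and by -4.16 ± 0.70 in Ribo-Zero libraries (adjusted p = 0.00123), and it was the only variant gene lower in either.

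histh1l (ENSDARG00000035519) had 0, 0.06, 0.12, 0.34, 9.63, 57.8, 67.6, 74.2 and 86.1 TPM in poly(A) libraries from 0 to 8 hpf and 0.61, 0.31, 0.37, 0.18, 6.83, 34.3, 42.4, 65.5 and 64.2 TPM in Ribo-Zero libraries. It first passed 1 TPM at 4 hpf in both and was above h1m at 8 hpf in both. Its late minus early difference was 8.96 ± 0.49 in poly(A) and 6.77 ± 0.31 in Ribo-Zero libraries, the highest of all members in each. h1f0, the counterpart of the mammalian linker histone of non-dividing cells, had 0, 0, 0, 0.06, 0.24, 3.69, 7.18, 9.90 and 20.9 TPM in poly(A) libraries and 0.10, 0, 0, 0.08, 0.15, 1.52, 2.25, 6.21 and 10.8 TPM in Ribo-Zero libraries, and was higher late by 6.85 ± 0.54 and 5.43 ± 0.62. h1fx reached 2.90 TPM in poly(A) and 1.57 TPM in Ribo-Zero libraries at 8 hpf and was tested only in poly(A), where it was higher late by 2.95 ± 0.63 (limma adjusted p = 0.00372). The late minus early differences of histh1l, h1f0 and h1fx rest on early levels at or near 0, so their size depends on the pseudocount of 0.1 TPM. In poly(A) libraries h1fx had 0.07, 0.07 and 0.42 TPM at 0, 1 and 2 hpf. All of these genes passed the filter on low levels only through later hours, which largely fixed the direction in advance.

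Shares were taken of the summed TPM of the 4 linker histone genes followed here. Any linker gene listed under another kind of name is not in this sum. In poly(A) libraries h1m made up 99.6%, 96.2%, 86.1%, 59.1% and 30.7% of it at 4, 5, 6, 7 and 8 hpf. In Ribo-Zero libraries it made up 99.5%, 95.8%, 86.5%, 56.1% and 30.4%, and in both 99.9% or more before. The 2 library kinds gave nearly the same share at each hour although the levels of h1m itself differed. Most of the gain came from 1 gene: without histh1l the h1m share at 8 hpf would be 67.2% in poly(A) and 73.0% in Ribo-Zero libraries. The summed level of the 4 genes did not stay constant, and at 8 hpf it was 159 TPM in poly(A) and 110 TPM in Ribo-Zero libraries, against 6801 and 1694 TPM at 0 hpf.

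The replacement was not seen after alpha-amanitin. There h1m made up 99.9% or more of the TPM of the 4 linker genes in all 12 libraries, and histh1l and h1f0 did not exceed 0.31 TPM and h1fx 1.02 TPM. The h1m level nevertheless came down, with 5625, 4656, 3977, 4929, 3948, 2535, 1468, 751, 770, 735, 620 and 384 TPM from 2 to 7.5 hpf, and its slope was -0.52 ± 0.04 ln units per hour (limma adjusted p = 3.6e-07), the only negative slope past the threshold among the variants. Most of the fall came after 4 hpf. The slope was -0.53 ± 0.08 from 4.5 to 7.5 hpf, and that of 2 to 4 hpf, -0.13 ± 0.07, did not pass the test (adjusted p = 0.234).

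At 4, 5, 6 and 7 hpf, h1m had 3948, 1468, 770 and 620 TPM after alpha-amanitin, against 2927, 1606, 471 and 124 TPM in wild-type poly(A) libraries. The mean difference of 0.83 ± 0.33 on the log2 scale did not pass the test (limma adjusted p = 0.0647), nor did it under any alternative run, with values between 0.34 and 1.15. The hourly difference was 0.43, -0.13, 0.71 and 2.32, so that the groups were apart at 7 hpf and close at 5 hpf.

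**Figure D5:**
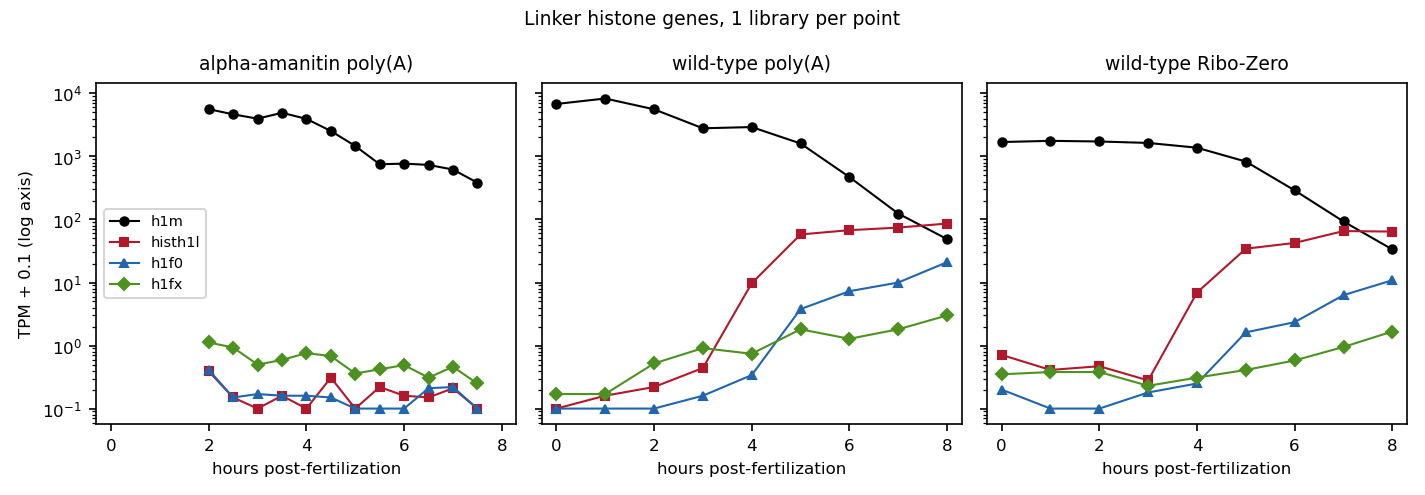
TPM + 0.1 (log axis) of the 4 linker histone genes against hours post-fertilization in alpha-amanitin poly(A) (left), wild-type poly(A) (middle) and wild-type Ribo-Zero libraries (right), with 1 library per point. h1m falls in all 3 profiles, and histh1l, h1f0 and h1fx climb only in the 2 wild-type profiles, where histh1l passes h1m at 8 hpf.

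The test of the difference between the 2 library kinds in the late minus early change gave 4 hist-prefixed genes with a more positive change in poly(A) libraries and 0 with a more negative one, and 2 and 3 among the variants, where 33.6% and 4.28% of all genes were called and the median of all genes was 1.05. The change of h1m was more negative in poly(A) libraries, by -1.42 ± 0.24 (limma adjusted p = 0.00537), and so were those of h2afvb (-1.31 ± 0.35) and h3f3d (-1.14 ± 0.32). It was more positive for hist2h2l (3.54 ± 0.75), the h3f3b.1 gene ENSDARG00000033009 (2.61 ± 0.47), histh1l (2.19 ± 0.55), the H4 copy ENSDARG00000099920 (2.09 ± 0.56), h2afx (1.51 ± 0.42) and hist2h3c (1.08 ± 0.33, but -0.07 and not called with median-of-ratios scaling). With that scaling h2afx (0.37) and ENSDARG00000099920 (0.93) were not called either. With a pseudocount of 1, histh1l was at 0.85 (adjusted p = 0.0569). Median-of-ratios scaling brought the median of all genes to 0.04, with 17.5% more positive and 17.9% more negative, and changed the counts to 2 and 1 for hist-prefixed genes and 1 and 6 for variants. The hist-prefixed count of 4 was 2 without 1 hpf, 0 without 6 hpf and 1 without 7 or 8 hpf, and the variants had 1 gene in each direction without 1, 6, 7 or 8 hpf, and 5 more positive ones without 2 hpf. Without 6 hpf, hist2h2l, histh1l, ENSDARG00000099920, h2afx, hist2h3c, h2afvb and h3f3d did not pass, whereas h1m passed whichever single hour was left out.

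Genes that make and carry histones were followed beside them. Of 15 genes listed for the 3′ end processing of histone mRNA, 14 were found and tested, and 2 were higher and 9 lower late than early in Ribo-Zero libraries, where 23.6% of all genes were higher and 58.5% lower. The largest change was that of slbp2 (ENSDARG00000069428), one of the 2 zebrafish stem-loop-binding protein genes, with 388, 358, 229, 169, 96.2, 34.5, 2.88, 0.62 and 0.35 TPM in poly(A) libraries and 320, 285, 282, 248, 133, 41.8, 8.64, 3.38 and 1.24 TPM in Ribo-Zero libraries (-6.42 ± 0.61 late minus early in Ribo-Zero, limma adjusted p = 8.68e-05). The second gene, slbp (ENSDARG00000100558), had 421, 343, 192, 131, 141, 224, 450, 490 and 340 TPM in poly(A) libraries and 288, 270, 257, 216, 136, 127, 233, 283 and 219 TPM in Ribo-Zero libraries, and did not pass the test there (-0.16 ± 0.13).

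The 2 genes also differed in direction between alpha-amanitin and wild type. Both came down from 4 to 7 hpf after alpha-amanitin, whereas in wild type slbp rose and slbp2 fell. slbp had 174, 53.8, 31.6 and 34.6 TPM at 4, 5, 6 and 7 hpf after alpha-amanitin, against 141, 224, 450 and 490 TPM in wild type, and was lower (-2.35 ± 0.61, limma adjusted p = 0.0181). slbp2 had 162, 48.1, 26.5 and 18.6 TPM after alpha-amanitin, against 96.2, 34.5, 2.88 and 0.62 TPM in wild type, and was higher (2.27 ± 0.65, adjusted p = 0.0245). Of the 14 genes, these were the only ones past the threshold in that comparison, in which 21.8% of all genes were lower and 23.8% higher. Against Ribo-Zero, 4 of the 14 were higher and 1 lower in poly(A) libraries, with a median of 0.17, beside 15.0% higher, 10.5% lower and a median of -0.06 over all genes.

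Of 31 histone chaperone genes listed, 25 were found and 24 passed the filter in Ribo-Zero libraries, where 5 were higher and 14 lower late than early, with a median of -0.88 beside -1.05 over all genes, shares close to the 23.6% and 58.5% of all genes. nasp (ENSDARG00000039208), which binds H3-H4 and linker histones, was among the lower ones, with 2406, 2952, 2671, 1812, 1163, 676, 455, 475 and 424 TPM in poly(A) libraries and 1875, 1804, 1812, 1696, 893, 429, 257, 281 and 258 TPM in Ribo-Zero libraries (-2.79 ± 0.11 late minus early in Ribo-Zero, limma adjusted p = 5.82e-06). The H3-H4 chaperone asf1bb (-4.11 ± 0.43) and the egg nucleoplasmin npm2a (-4.56 ± 0.59) were lower too, and anp32e, which removes H2A.Z in mammals, was higher (1.78 ± 0.18). After alpha-amanitin 6 of the 25 were higher and 4 lower, beside 23.8% and 21.8% of all genes. Among the higher ones was chaf1a, a subunit of the replication-coupled assembly factor CAF-1, with 398, 414, 421 and 457 TPM at 4, 5, 6 and 7 hpf after alpha-amanitin, against 320, 294, 179 and 171 TPM in wild type (0.86 ± 0.22, adjusted p = 0.0183).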

How the data were processed

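RNA of whole embryos was measured in 30 libraries. The authors demultiplexed with bcl2fastq 2.18, aligned the reads with STAR 2.7.3a to danRer11 with Ensembl release 98 gene models, quantified genes with RSEM and deposited TPM values with 2 decimals. RSEM divides reads among near-identical copies, so single hist1h4l values are estimates. TPM are shares of what each library kind captured, so a difference between kinds is one of shares. Depth is unknown here, and so is the precision of low values.

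Each comparison kept genes whose TPM averaged 1 or more in its libraries. Log2(TPM + 0.1), or ln(TPM + 0.1) for slopes, was fitted in limma 3.58.1 under R 4.3.3, two-sided, with trended empirical Bayes and Benjamini-Hochberg adjustment over every gene kept, at a threshold of 0.05. Folds of low genes are understated by the pseudocount. Poly(A) and Ribo-Zero libraries were compared with the hour as a block, 9 pairs. The 4 treated and 4 wild-type libraries of 4 to 7 hpf were compared with the hour as a number. Class sums and shares were not tested. Tables and figures used Python 3.11.15, pandas 2.3.3, numpy 2.4.6 and matplotlib 3.10.9.

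Named were all linker and variant genes, the 3 hist-prefixed genes of each class with the highest mean Ribo-Zero TPM, and the 5 genes at each end of the poly(A) minus Ribo-Zero and of the late minus early Ribo-Zero differences (the last only past the threshold). The genes of the other 2 lists that are named, and the H4 copies with a trend, were picked after their values were seen. The histone genes, the lists of related genes and the tests were chosen with earlier results of these data known. The reference table gave a symbol for 22 of the 45 genes, and names are those of the files. The fitting code was first tested on simulated data. Alternatives were pseudocounts of 1 and 0.01, no filter and a filter at 5 TPM, median-of-ratios scaling, rescaling without mitochondrial genes, other time windows, slopes, and leaving out each hour. Shares of all genes called are given only for the main fits and median-of-ratios scaling. Single-gene results of the alternatives are given for the histone genes only, not for the lists of related genes. No sequences were printed, because none were given.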

Additional observations from a re-analysis of the deposited data

Results flagged for a closer look

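In 4 cases the library of 8 hpf stood apart from the other 8 of its profile by Dixon's test, which chance alone meets in about 1 of 20 groups: h1f0 with 20.9 TPM in wild-type poly(A), h1fx with 1.57 TPM in wild-type Ribo-Zero, and h2afy2 with 72.65 TPM in wild-type poly(A) and 37.24 TPM in wild-type Ribo-Zero libraries. In all 4 the library of 8 hpf is the last of the time course and the highest. The rate of 1 in 20 is for values with no order in time, so it does not apply to these courses. The late minus early change of h1m differed between library kinds by a direct test, with a poly(A) minus Ribo-Zero value of -1.42 on the log2 scale. That of histh1l differed in the other direction, at 2.19, but at 0.85 (limma adjusted p = 0.0569) with a pseudocount of 1.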

How the results depend on the processing

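The single-gene values tallied here are those of genes with a name of their own, without the hist1h4l copies and the h3f3b.1 genes. Of them, under all alternatives, 1143 kept their direction and their side of the threshold, 88 lost and 30 gained the call and 39 changed sign. Of the counts and shares 315 kept their size and 61 moved. The cause was not tested for any of these. With a pseudocount of 1, histh1l turned to 0.15 for poly(A) against Ribo-Zero and 4 variants had a more positive late minus early change in poly(A). From 0 to 2 hpf alone, hist2h2l was at -1.85, h2afy at -1.01 and h2afy2 at -0.66 for poly(A) against Ribo-Zero, and from 4 to 8 hpf alone 2 hist-prefixed genes were higher and histh1l was at 0.50. Without a filter, 2 variants had a rising difference between kinds and 2 a negative slope after alpha-amanitin. With median-of-ratios scaling, the trend counts were 21 hist-prefixed genes falling and 1 and 5 variants rising and falling, with hist2h3c at -0.055 and h3f3a at -0.19, h2afva was at 0.88 late against early in Ribo-Zero, the difference between kinds was called for 2 and 1 hist-prefixed genes and 1 and 6 variants, with hist2h3c at -0.066 and h3f3a at -1.12, 8 variants were lower after alpha-amanitin, with h2afva at -0.37, and 1 hist-prefixed gene had a negative slope. Rescaling without mitochondrial genes also gave 1 negative hist-prefixed slope, and h3f3a at -0.027 for the difference between kinds. A slope over all 9 poly(A) libraries called 9 hist-prefixed genes higher, with hist1h2ba at -0.059 per hour. For alpha-amanitin against wild type, 3 variants were lower with the hour as a replicate block and 1 from 2 to 7 hpf. For slopes after alpha-amanitin, a filter at 5 TPM left 2 positive hist-prefixed genes. From 2 to 4 hpf alone there were 2 positive hist-prefixed genes, and 1 positive and 2 negative variants, with hist2h2l at 0.28, h3f3a at -0.13, h3f3d at -0.22, h2afvb at -0.22, h2afy at -0.035 and h2afy2 at -0.029. From 4.5 to 7.5 hpf alone 0 hist-prefixed genes were positive (4 over all hours), with hist1h2ba at -0.17, h2afx at -0.059 and h2afva at 0.063. Without histh1l the h1m share at 6, 7 and 8 hpf was 98.3%, 91.4% and 67.2% in poly(A) and 99.1%, 92.9% and 73.0% in Ribo-Zero libraries. Leaving out 1 hour at a time gave these ranges. For poly(A) against Ribo-Zero, histh1l ran from -0.36 to 0.090 and h2afy from -0.027 to 0.39. For the trend, 0 to 3 hist-prefixed genes fell, 1 to 5 variants rose and 1 to 3 fell, h3f3a ran from -0.012 to 0.044 and h2afva from -0.068 to 0.020. For late against early in poly(A), 8 to 18 hist-prefixed genes and 6 to 8 variants were higher, h3f3d ran from -0.11 to 0.25 and hist1h2ba from -0.38 to 0.66. For the difference between kinds, 0 to 5 hist-prefixed genes were more positive and 0 to 1 more negative, 1 to 5 variants more positive and 1 to 3 more negative, hist1h2ba ran from -0.79 to 0.11, h3f3a from -0.16 to 0.19 and h2afva from -0.48 to 0.015. For alpha-amanitin against wild type, 2 to 7 variants were lower and h2afva ran from -0.042 to 0.23. For slopes, 2 to 10 hist-prefixed genes were positive and 0 to 1 negative, and h2afx ran from -0.016 to 0.16. Each hour has 1 library of each kind, and poly(A) against Ribo-Zero was fitted with the hour as a replicate block. With no replicate block, 30 hist-prefixed genes were lower and 7 variants higher, and h1m (1.16) lost its call.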
